A study of Mus musculus with 8 samples.

Results

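The T-box factors Tbx2, Tbx3, Tbx4 and Tbx5 and the mesoderm factors Meox2, Tcf21, Gata4, Gata6, Hand2 and Osr1 are grouped here as transcription factors of the lung field and its mesoderm. They were chosen by name, and all 10 were measured among the 18193 genes of the study. Cells that carried green fluorescent protein were sorted from cortex and from lungs of E13.5 embryos of homozygous Tie2-GFP mice (a Jackson laboratory line), the same genotype in both groups. In this line the promoter of Tek (Tie2), a receptor of endothelial cells, drives the fluorescent protein, and the reporter can also mark some blood cells. The embryos of a litter (10 to 13) were pooled for each sample, and 4 cortex samples were set against 4 lung samples, numbered 72, 22, 19 and 18 in both tissues. RNA was amplified and hybridised to Affymetrix Mouse Genome arrays, and the values are log2 expression values per probe set, a group of probes for a transcript.

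In the embryo, T-box proteins bind DNA through a shared domain and include pairs of close relatives. Tbx2 and Tbx3 are mainly repressors, and Tbx4 and Tbx5 are mainly activators that are needed for lung bud outgrowth from the mesoderm around the foregut. Osr1 is a zinc finger factor of early foregut and kidney mesoderm, Tcf21 a basic helix-loop-helix factor of lung mesenchyme, Hand2 a relative of Tcf21 known from heart and limb, Gata4 and Gata6 zinc finger factors of heart and gut, and Meox2 a homeobox factor of somites and vessels. In the mouse genome the T-box genes stand in neighbouring pairs, Tbx2 beside Tbx4 on chromosome 11 and Tbx3 beside Tbx5 on chromosome 5 (RefSeq, GRCm38.p6).

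Promoter sequence was at hand for 4 of the 10 genes, from RefSeq on GRCm38.p6, and is shown because these genes differ in how their values spread among the lung arrays described further on. Each window runs 5′ to 3′ from 250 bases before the gene's start to 50 bases after it. Capitals mark the letters of the GATA site AGATAA and of the homeobox site TAATTA, searched on both strands. The windows lie at chr12:37108290-37108589 on the plus strand for Meox2, chr10:22820094-22820393 on the minus strand for Tcf21, chr8:57320733-57321032 on the plus strand for Hand2 and chr11:85896515-85896814 on the plus strand for Tbx4.
Meox2: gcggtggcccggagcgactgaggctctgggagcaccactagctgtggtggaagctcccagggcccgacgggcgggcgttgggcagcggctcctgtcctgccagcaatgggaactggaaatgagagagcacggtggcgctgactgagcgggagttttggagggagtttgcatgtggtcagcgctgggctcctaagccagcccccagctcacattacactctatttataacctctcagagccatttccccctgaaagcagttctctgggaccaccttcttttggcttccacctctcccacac
Tcf21: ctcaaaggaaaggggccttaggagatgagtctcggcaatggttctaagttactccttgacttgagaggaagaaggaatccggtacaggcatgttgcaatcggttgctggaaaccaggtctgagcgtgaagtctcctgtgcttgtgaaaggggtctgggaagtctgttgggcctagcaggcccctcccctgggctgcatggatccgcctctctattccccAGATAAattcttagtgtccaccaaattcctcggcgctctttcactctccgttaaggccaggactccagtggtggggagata
Hand2: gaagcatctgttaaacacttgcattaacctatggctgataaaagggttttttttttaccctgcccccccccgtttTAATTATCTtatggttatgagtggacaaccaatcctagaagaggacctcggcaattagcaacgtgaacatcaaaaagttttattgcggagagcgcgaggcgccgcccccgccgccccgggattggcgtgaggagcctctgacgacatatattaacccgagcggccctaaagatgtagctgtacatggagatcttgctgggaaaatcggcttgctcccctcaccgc
Tbx4: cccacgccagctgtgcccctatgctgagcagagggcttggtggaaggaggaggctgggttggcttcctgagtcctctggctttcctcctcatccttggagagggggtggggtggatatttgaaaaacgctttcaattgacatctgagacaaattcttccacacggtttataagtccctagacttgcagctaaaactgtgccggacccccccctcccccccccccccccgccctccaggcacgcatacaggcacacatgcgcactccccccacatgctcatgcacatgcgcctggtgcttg

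The GATA site was found once in the Tcf21 window and once in the Hand2 window, and in 11.18% of all 32851 promoter windows of this length. In Tcf21 it begins 31 bases before the start, and in Hand2 it lies farther upstream. The homeobox site was found once, in Hand2, where its letters overlap those of the GATA site, and in 5.29% of all windows. The T-box half-site GGTGTGA was in 0 of the 4 windows and in 3.98% of all windows. The E-box CANNTG, the general site of helix-loop-helix factors, was not capitalised. It occurred 6 times in Tbx4, 2 times in Hand2, once in Meox2 and 0 times in Tcf21, and 72.3% of all windows hold at least 1. These matches describe letters and show no binding.

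Array medians lay between 6.59 and 6.72, precision is limited by having 4 arrays a tissue, and 4 samples (19 and 18 of both tissues) carry a description that names the other tissue. Tissue was taken from titles and tissue labels, and the values went with them. All 12 neural markers were higher in the arrays titled cortex (list mean 11.42 to 11.99 in cortex and 5.01 to 5.66 in lung). The mean of 27 pan-endothelial genes ran from 9.38 to 11.26 on cortex arrays and from 11.27 to 11.81 on lung arrays, with 7 called lower and 0 called higher in cortex. It was low on cortex 18 and 72 (9.38 and 9.77) and higher on cortex 22 and 19 (11.09 and 11.26). The neural mean went the other way, at 11.99 and 11.96 on cortex 18 and 72 and 11.65 and 11.42 on cortex 22 and 19. The part of neural cells in the cortex values was not tested. In such sorted pools, fewer cells of a type and less RNA per cell cannot be told apart. P-values measure the spread between these pooled samples.

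All 10 genes had a lower mean in the cortex cells, as did 58.5% of all genes, and 6 of the 10 passed the test. Meox2, Gata4, Tbx5, Tbx3, Gata6 and Osr1 were called lower in cortex (limma, Benjamini-Hochberg adjusted p under 0.05 over all genes), 0 were called higher and 4 were not called. Over all genes, 7.71% were called lower in cortex and 10.4% higher. All 6 called genes were at least 2-fold lower, a call made for 4.95% of all genes. The median difference of the 10, cortex minus lung, was -1.88 log2 units, against -0.09 over all genes. On 8 of the 10 every cortex array lay below every lung array, as for 12% of all genes, and Tbx2 and Tbx4 overlapped. After all arrays were set to an equal mean of the 27 pan-endothelial genes, the median gene moved by 1.24 log2 units, to 1.15, and 3 of the 10 stayed called lower (Tbx5, Meox2 and Gata4) while the means of Tbx4 and Hand2 turned to the cortex side. That scaling called 142 of all genes lower and 5521 higher, against 1403 lower and 1888 higher on the deposited values. It moved the difference of every gene by the same amount, and its fit gave all 10 genes the same SE (0.58). For these genes, calls under it therefore follow the size of the difference, not the spread of each gene. Osr1 lost its call, leaving 5, when any cortex array, lung 72 or lung 19 was left out. The count was also 5 without cortex 72 and 18 together, a check chosen after seeing the data. With each gene read from its probe set of largest range, also chosen after seeing the data, 7 of the 10 were called lower, where 6.77% of all genes were.

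**Figure D1:**
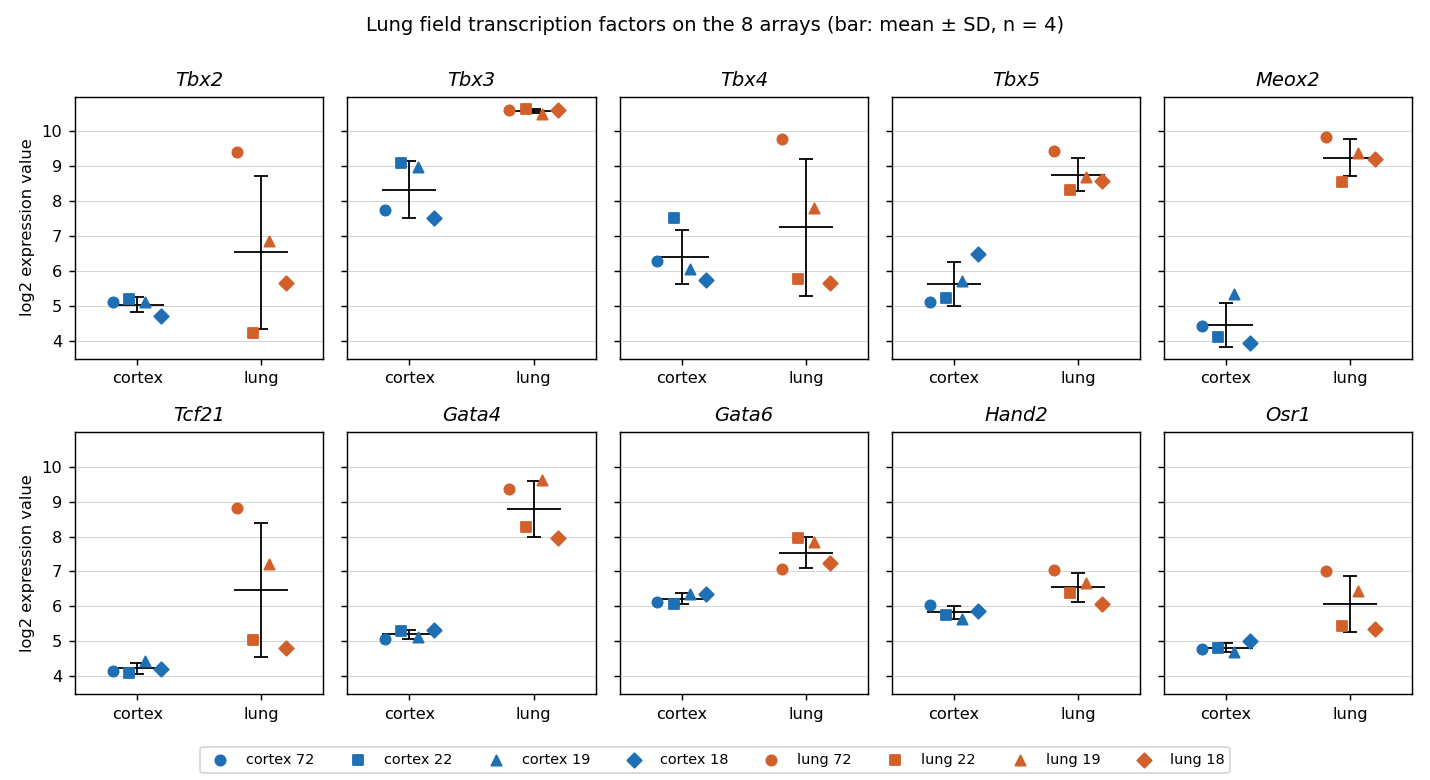
Log2 expression value (y axis) of the 10 genes on the 4 cortex arrays (left, blue) and the 4 lung arrays (right, orange). Each symbol is an array, and the bar is the mean with its SD (n = 4). Tbx3 is tight in lung, while Tbx2, Tbx4 and Tcf21 spread over more than 4 log2 units there with lung 72 on top.

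Tbx3, a repressor, read 7.75, 9.09, 8.98 and 7.52 on cortex arrays 72, 22, 19 and 18, against 10.61, 10.64, 10.51 and 10.62 on the lung arrays of the same numbers. The lung arrays stood close together and above all cortex arrays, with a range of 0.13, and 98.2% of genes had a lung range at least as large. Tbx3 was 4.80-fold lower in cortex (-2.26 log2 units, SE 0.36, adjusted p = 0.00291). Its neighbour Tbx5, an activator of lung bud and heart development, read 5.11, 5.22, 5.71 and 6.50 on the cortex arrays and 9.42, 8.32, 8.69 and 8.59 on the lung arrays. Cortex was low on every array, and Tbx5 was 8.71-fold lower there (-3.12 log2 units, SE 0.35, adjusted p = 0.000406). Cortex 18, the array with the highest Tbx5 value in cortex, still lay 1.83 log2 units under the lowest lung array.

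The other linked pair was uneven among the lung arrays. Tbx2, the close relative of Tbx3, read 5.11, 5.21, 5.10 and 4.71 on the cortex arrays, against 9.40, 4.23, 6.85 and 5.67 on the lung arrays. Lung 72 was high, and lung 22 lay below all cortex arrays. The difference of -1.504 log2 units (SE 0.93) was not called (adjusted p = 0.306), and without lung 72 it was -0.55. Tbx4, the close relative of Tbx5, read 6.29, 7.53, 6.07 and 5.73 on the cortex arrays, against 9.77, 5.78, 7.80 and 5.65 on the lung arrays. Lung 72 and 19 were above all cortex arrays, and lung 22 and 18 lay within the cortex range or below it. The difference of -0.85 log2 units (SE 0.89) was not called (adjusted p = 0.545), with a 95% interval from -2.86 to 1.17, and without lung 72 it was -0.004. An interval this wide leaves the size of the tissue difference unknown for Tbx4, and likewise for Tbx2 (-3.61 to 0.61).

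Meox2, the homeobox factor, had the largest measured difference of the 10. It read 4.42, 4.12, 5.35 and 3.95 on the cortex arrays, against 9.82, 8.56, 9.39 and 9.21 on the lung arrays. The tissues were 3.21 log2 units apart at their nearest arrays, and Meox2 was 27.6-fold lower in cortex (-4.79 log2 units, SE 0.36, adjusted p = 4.62e-05). It stayed called in all 18 alternative settings. Its second probe set gave 12.1-fold. The cortex mean of 4.46 lay under 4.98, the lower quartile of all values, and without detection calls in the table it was not tested whether the probe sets read any Meox2 in cortex above background, so the fold may be a lower bound. The cortex means of Tcf21 and Osr1 lay under that quartile too.

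Both GATA factors of the mesoderm fell in cortex. Gata4 read 5.06, 5.29, 5.13 and 5.32 on the cortex arrays, against 9.36, 8.26, 9.61 and 7.97 on the lung arrays. Every lung array was high, with 72 and 19 above 22 and 18, and Gata4 was 12.1-fold lower in cortex (-3.59 log2 units, SE 0.36, adjusted p = 0.000229). Gata6 read 6.12, 6.07, 6.36 and 6.36 on the cortex arrays, against 7.06, 7.96, 7.85 and 7.25 on the lung arrays. The groups did not overlap, but lung 72, the top array for 7 of the 10 genes, was here the lowest lung array. Gata6 was 2.47-fold lower in cortex (-1.31 log2 units, SE 0.22, adjusted p = 0.00431).

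Tcf21 and Osr1 were low in cortex and uneven in lung, while the Hand2 probe set used here differed less between the tissues. Tcf21 read 4.15, 4.09, 4.45 and 4.21 on the cortex arrays, against 8.83, 5.03, 7.22 and 4.82 on the lung arrays. Lung 22 and 18 lay within 1 log2 unit of the cortex arrays, and the difference of -2.25 log2 units (SE 0.81) was not called (adjusted p = 0.0927). It was called without lung 18 (-2.80 log2 units, adjusted p = 0.0459) and with array quality weights (-2.91 log2 units, adjusted p = 0.00668). Those weights were lowest for lung 18 (0.32) and highest for lung 19 (3.58), so calls under them rest largely on lung 19 for the lung side. Without lung 72 it was -1.47. Osr1 read 4.77, 4.80, 4.71 and 5.004 on the cortex arrays, against 7.003, 5.43, 6.44 and 5.37 on the lung arrays. The order of the lung arrays was that of Tcf21, with no overlap with cortex, and Osr1 was 2.36-fold lower in cortex (-1.24 log2 units, SE 0.35, adjusted p = 0.043), a call that was not made when p was adjusted over all probe sets (adjusted p = 0.0586). Hand2 read 6.05, 5.75, 5.64 and 5.87 on the cortex arrays, against 7.05, 6.37, 6.66 and 6.08 on the lung arrays. Lung 18 exceeded cortex 72 by only 0.03, and the difference of -0.72 log2 units (SE 0.22) was not called (adjusted p = 0.0535). It was called under 5 other settings: without lung 18 (adjusted p = 0.0223), with arrays centred on their medians (0.0404), with array quality weights (0.00537), with the mean of its probe sets (0.0176) and with its probe set of largest range (0.00972).

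Probe sets of 1 gene differed in what they showed. The values above come from each gene's brightest probe set by its mean on all 8 arrays, and the 10 genes had 23 probe sets, 22 of them with a lower mean in cortex. With p adjusted over all 45037 probe sets, 11 were called lower and 0 higher, where 4.88% of all probe sets were called lower. For Hand2 a second probe set read 3.90, 4.36, 3.85 and 4.25 on the cortex arrays and 8.51, 7.45, 8.61 and 5.24 on the lung arrays. It lay 10.3-fold lower in cortex (adjusted p = 0.014), while the probe set used above gave 1.64-fold. For Gata6 a second probe set read 4.60, 5.50, 5.23 and 5.12 on the cortex arrays and 8.39, 8.43, 9.21 and 7.07 on the lung arrays. That is 8.95-fold lower in cortex (adjusted p = 0.00167), against 2.47-fold for the chosen probe set. The Tbx3 value rests on a probe set whose suffix (_x_at) marks probes that can pair with other transcripts, and another probe set without that suffix gave 5.31-fold (adjusted p = 0.00152). Other probe sets lay near 0, such as the second ones of Tbx5 (-0.26 log2 units), Gata4 (-0.31) and Tcf21 (0.04), each at low values in both tissues.

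**Figure D2:**
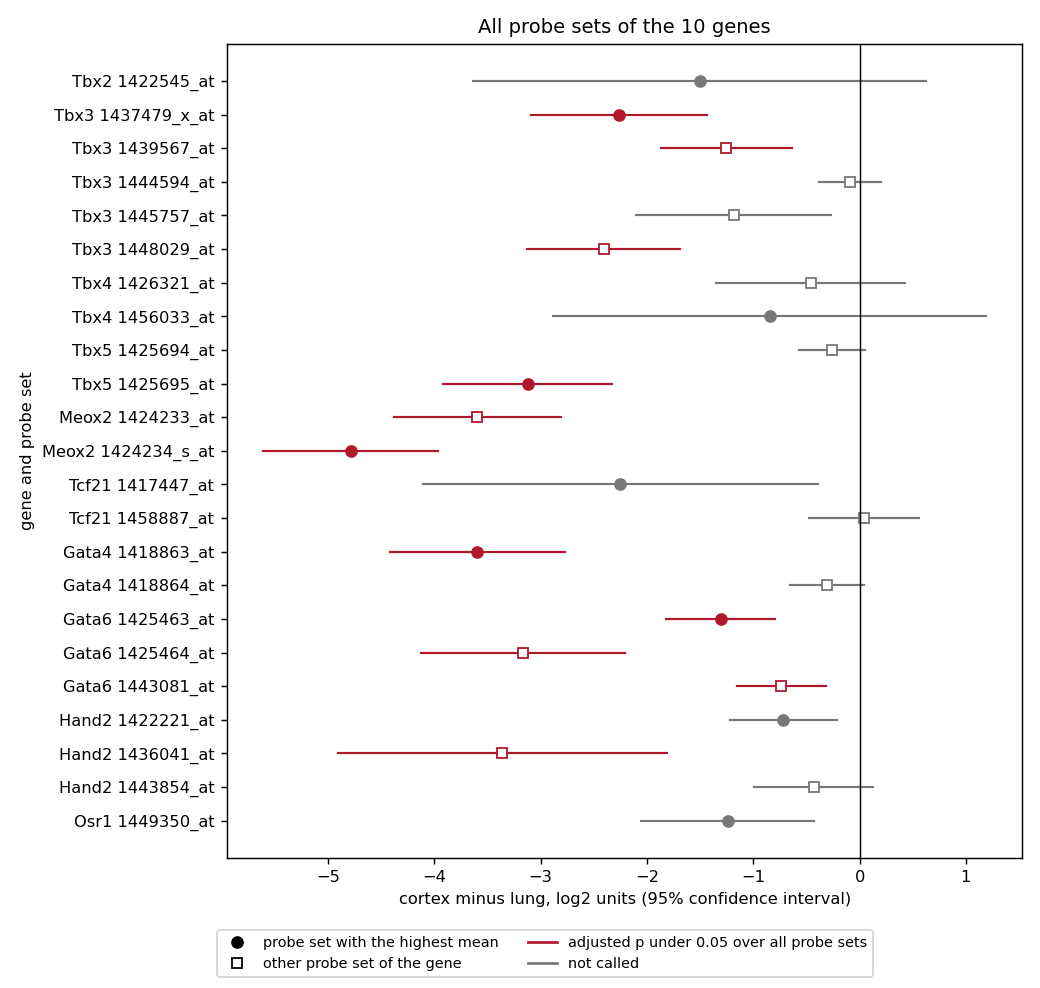
Difference between cortex and lung (x axis, log2 units, with its 95% confidence interval) for each of the 23 probe sets. Filled circles are the probe sets with the highest mean, open squares the others, and red marks an adjusted p under 0.05 over all probe sets. Hand2 and Gata6 each have a probe set near -3 beside a chosen one nearer 0.

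Relatives of the 10 genes were read from lists written with earlier results of these data known. Genes named outside the naming rule, chosen after their values were seen, are Tbx1, Gata1, Meox1, Hand1, Osr2, Fgf10, Nkx2-5, Nkx2-1, Sftpb, Sftpc, Epcam, Cdh1 and Rgs5. Of 15 measured T-box genes, 4 were lower in cortex, 2 were higher and 9 were not called. The family median was -0.06 log2 units, near the -0.09 of all genes, and with the arrays at equal pan-endothelial means 2 were lower and 6 higher. Tbr1 and Eomes, T-box factors of cortical neurons and their progenitors, were 95.3-fold and 44.5-fold higher in cortex. Tbx20, a T-box factor of heart and endocardium, read 4.94, 4.61, 5.68 and 6.22 on the cortex arrays and 8.32, 7.62, 9.59 and 7.39 on the lung arrays (7.30-fold lower in cortex, adjusted p = 0.00606). Its highest lung array was 19, as for Gata4. Tbx18, of mesothelium and epicardium, was 1.91-fold lower in cortex (adjusted p = 0.0327), a call that ended without any 1 of 6 arrays, all 4 of cortex and lung 22 and 19. Family members that were not called included Tbx1 (1.26 log2 units, adjusted p = 0.113).

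The GATA list moved towards lung more fully, with 6 of 9 measured genes lower in cortex, 0 higher and 3 not called, and a median of -1.59 log2 units, but 1 lower and 1 higher at equal pan-endothelial means. Gata3 averaged 6.54 ± 0.15 in cortex and 9.06 ± 0.11 in lung (SD, n = 4 each), 5.77-fold lower in cortex (adjusted p = 8.7e-06). Gata2, the GATA factor best known from endothelium and blood progenitors, averaged 9.18 ± 1.09 in cortex and 11.02 ± 0.55 in lung (SD, n = 4 each, adjusted p = 0.0418), a call that was lost when cortex 72, cortex 18, lung 72, lung 22 or lung 19 was left out. Gata5, of heart and endoderm, averaged 5.02 ± 0.11 in cortex and 7.06 ± 1.10 in lung (SD, n = 4 each, adjusted p = 0.0185), and lost its call without lung 19 (-1.91 log2 units). Zfpm1, a zinc finger partner of GATA factors, was 3.01-fold lower in cortex (adjusted p = 0.0111). Gata1, the erythroid factor, read 4.45 to 5.19 in cortex and 4.54 to 5.45 in lung.

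Among 11 measured close relatives of Meox2, Tcf21, Hand2 and Osr1, the members included, 3 were lower in cortex, 0 were higher and 8 were not called, with a median of -0.72 log2 units that turned to 0.52 at equal pan-endothelial means. The third beside Meox2 and Osr1 was Tcf15, a helix-loop-helix factor that is known to pair with Meox2 in heart endothelium. Tcf15 read 7.38, 7.17, 7.24 and 6.87 on the cortex arrays and 9.99, 9.24, 9.57 and 10.16 on the lung arrays (5.95-fold lower in cortex, adjusted p = 0.000105). Like Meox2 it was high on every lung array. Meox1 was not called (-0.89 log2 units, adjusted p = 0.156), and neither were Hand1 (-0.12) and Osr2 (-0.24). Without lung 18 the count of lower genes was 5, with Tcf21 and Hand2 added. It was 2 without any 1 of the other arrays except lung 22.

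**Figure D3:**
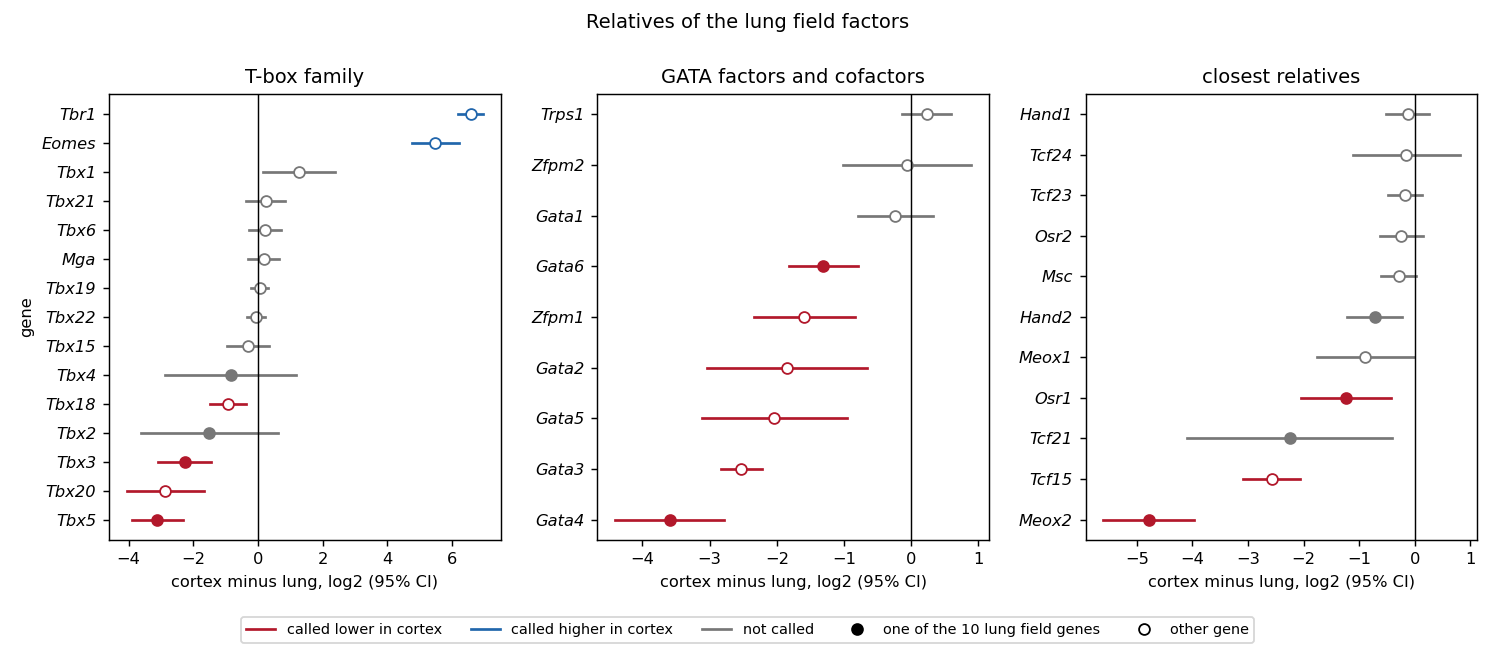
Difference between cortex and lung (x axis, log2 units, with its 95% confidence interval) for the measured T-box genes, GATA factors with cofactors, and close relatives of the other members. Filled points are the 10 lung field genes. Tbr1 and Eomes stand apart at the cortex side of the T-box family.

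Signals of the lung mesenchyme and other mesoderm factors gave a mixed picture. Of 19 measured signalling genes, 3 were lower in cortex, 3 were higher and 13 were not called, with a median of -0.17 (1 lower, 4 higher and a median of 1.06 at equal pan-endothelial means). Bmp4, a bone morphogenetic protein of the distal lung, averaged 6.02 ± 0.80 in cortex and 10.51 ± 0.28 in lung (22.5-fold lower in cortex, adjusted p = 7.93e-05). Wnt2, a Wnt ligand of lung mesoderm, read 4.17, 4.02, 4.07 and 4.02 on the cortex arrays and 8.65, 5.42, 6.40 and 5.73 on the lung arrays. As for Tcf21, lung 72 and 19 were above lung 22 and 18, and its call (adjusted p = 0.0254) ended without any 1 of the 4 cortex arrays or lung 19. Fgf10, the growth factor controlled by Tbx4 and Tbx5 in lung mesenchyme, was not called and low in both tissues, at 4.99 to 5.29 in cortex and 5.31 to 5.85 in lung (adjusted p = 0.112). The receptor Fgfr2 was higher in cortex by 4.80-fold (adjusted p = 0.0257), a call lost when cortex 72, 22 or 18 or lung 22 was left out. The counts in the list fell to 1 lower without any 1 of the cortex arrays or lung 19, and to 1 higher without cortex 72, 22 or 18.

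Of 25 measured other mesoderm factors, 11 were lower in cortex, 1 was higher and 13 were not called, with a median of -0.51 (3 lower, 7 higher and a median of 0.73 at equal pan-endothelial means). Foxc2 and Foxf1, forkhead factors of lymphatic and of lung vessels and mesenchyme, were 26.4-fold and 16.8-fold lower in cortex, and Foxf2, a forkhead factor of brain pericytes and vessels, was 8.75-fold higher. Leaving out cortex 72 gave 7 lower genes, lung 19 gave 6, and cortex 72 and 18 together gave 4, and the count of higher genes was 2 without lung 72, 22 or 18. Of 18 listed partners and targets of T-box proteins, 3 were lower in cortex, 3 were higher and 12 were not called, with a median of 0.04 (1 lower and 8 higher at equal pan-endothelial means). Smarcd3, a chromatin remodelling subunit that works with Tbx5 in the heart, was higher in cortex by 6.21-fold (adjusted p = 0.000119). Cdkn1b, a cell cycle inhibitor, was higher by 2.38-fold. The count of higher partners was 5 without cortex 18. Nkx2-5, the cardiac partner of Tbx5, read 4.85 to 5.21 in cortex and 4.85 to 5.23 in lung.

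The lung arrays differed among themselves, and the 10 genes fell into those that spread with them and those that did not. The order counted next was chosen with the values of these genes seen, so its count is a description and no test. Lung 72 and 19 both exceeded lung 22 and 18 for 8 of the 10 genes, as for 36.7% of all genes. The exceptions, on the probe sets used, were Tbx3 and Gata6. The other strong Tbx3 probe set was also tight, with a lung range of 0.40. A dimmer called Tbx3 probe set did follow the order (6.34 and 6.54 on lung 72 and 19, 5.97 and 5.27 on lung 22 and 18). Another, not called, had the reverse order, with a lung range of 1.80. The lung range was 5.17 log2 units for Tbx2, 4.13 for Tbx4 and 4.01 for Tcf21, and 0.0110%, 0.236% and 0.286% of all genes had one at least as large. It was between 0.90 and 1.64 for Tbx5, Meox2, Gata4, Gata6, Hand2 and Osr1, against a median of 0.69 over all genes. The second probe sets of Gata6 and Hand2 had wider lung ranges, of 2.14 and 3.38. In cortex, the ranges of Tbx3 (1.57) and Tbx4 (1.80) were the widest of the 10, against a median of 0.57 over all genes.

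Markers of other cell types moved in the same arrays. The mean of 18 fibroblast and mesenchyme genes was 6.90, 6.84, 7.16 and 6.69 on cortex arrays 72, 22, 19 and 18, against 9.51, 8.83, 9.19 and 8.06 on the lung arrays, and 13 of the 18 were lower in cortex. The mean of 11 mesothelial genes was 4.76 to 5.19 in cortex, against 7.03, 6.31, 6.10 and 5.60 on the lung arrays. That of 14 pericyte and smooth muscle genes was 6.65 to 6.92 in cortex, against 7.88, 7.06, 7.27 and 6.51 on the lung arrays. That of 16 lung epithelial genes was 6.29 to 7.16 in cortex, against 7.72, 6.82, 6.99 and 6.66 on the lung arrays. All 4 of these lists were highest on lung 72 and lowest on lung 18, and so were Tbx4, Tcf21, Hand2 and Osr1. The mesothelial and epithelial lists are not separate, since both hold Cdh1, Krt8 and Krt18. The share of all genes with both extremes was not counted. Over all genes, lung 72 was the top lung array for 41.4%. The pan-endothelial mean was 11.67, 11.70, 11.81 and 11.27 on the lung arrays, but its single genes differed. Cdh5 read 10.52, 9.78, 10.16 and 8.13 there, with lung 72 highest and lung 18 lowest, and Tie1 read 13.03, 13.02, 13.05 and 13.18. Of the 27 pan-endothelial genes, 5 had their highest lung value on lung 72 and 7 on lung 19. Of the 16 epithelial genes, 2 were lower in cortex, 1 was higher and 13 were not called, and 11 had their highest lung value on lung 72. There the surfactant gene Sftpc read 8.50 (6.37 to 7.28 on the other lung arrays), Epcam 8.27 (5.97 to 7.13), Cdh1 8.15 (4.97 to 5.95), Nkx2-1 7.02 (6.45 to 6.68) and Sftpb 5.66 (5.11 to 5.46). These genes were picked from those 11 after their values were seen. Cdh1 was not called and read 6.21 on cortex 22, above its values on lung 22, 19 and 18. The fibroblast genes Postn, Col3a1 and Col1a2 differed by -5.10, -4.22 and -4.22 log2 units, cortex minus lung, and Col1a2 read 5.95 to 7.596 in cortex and 9.80 to 11.77 in lung. Of the 14 pericyte and smooth muscle genes, 3 were lower in cortex, among them the actin gene Acta2 (-4.66) and Anpep (-3.01), and 2 were higher, Vtn (3.03) and Rgs5 (2.20). Krt18, an epithelial and mesothelial keratin, was lower in cortex (-3.94), while Sox9 of the epithelial list was higher (2.88). Of the 11 mesothelial genes, 6 were lower in cortex, Wt1 (-2.12) among them, and 0 higher, with 2 lower without cortex 72 or lung 22. Markers of blood cells and macrophages had a mean of 5.70 to 7.29 in cortex and 5.56 to 6.38 in lung, with 0 of 12 lower in cortex and 2 higher, Csf1r and Cx3cr1, which lost their calls without any 1 of 5 and of 6 arrays. The part of such cells in the values of the 10 genes was not tested.

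Genes of heart muscle followed another order. Their mean over 15 genes was 5.56 to 5.67 in cortex, against 7.18, 6.56, 7.46 and 6.36 on lung arrays 72, 22, 19 and 18, and 6 of the 15 were lower in cortex and 1 higher. The atrial light chain gene Myl7 read 4.89 to 5.48 in cortex, against 9.31, 8.22, 10.31 and 6.64 on the lung arrays (adjusted p = 0.00888), and the cardiac actin gene Actc1 4.62 to 5.18 in cortex, against 10.08, 8.07, 10.33 and 7.13 on the lung arrays. The troponin gene Tnnt2 was 8.95-fold lower in cortex (adjusted p = 0.0158). For this list lung 19 was the top array and lung 18 the lowest. The same held for Gata4, Tbx20 and the second probe sets of Hand2 and Gata6. It did not hold for the chosen probe sets of Hand2 and Tbx5, highest on lung 72, or of Gata6, highest on lung 22 and lowest on lung 72. Of the 15 heart muscle genes, 8 had their highest lung value on lung 19 and 4 on lung 72. Over all genes, lung 19 was the top lung array for 15.7%. The part of heart cells in the values of Gata4, Gata6, Hand2, Tbx5 and Tbx20 was not tested.

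**Figure D4:**
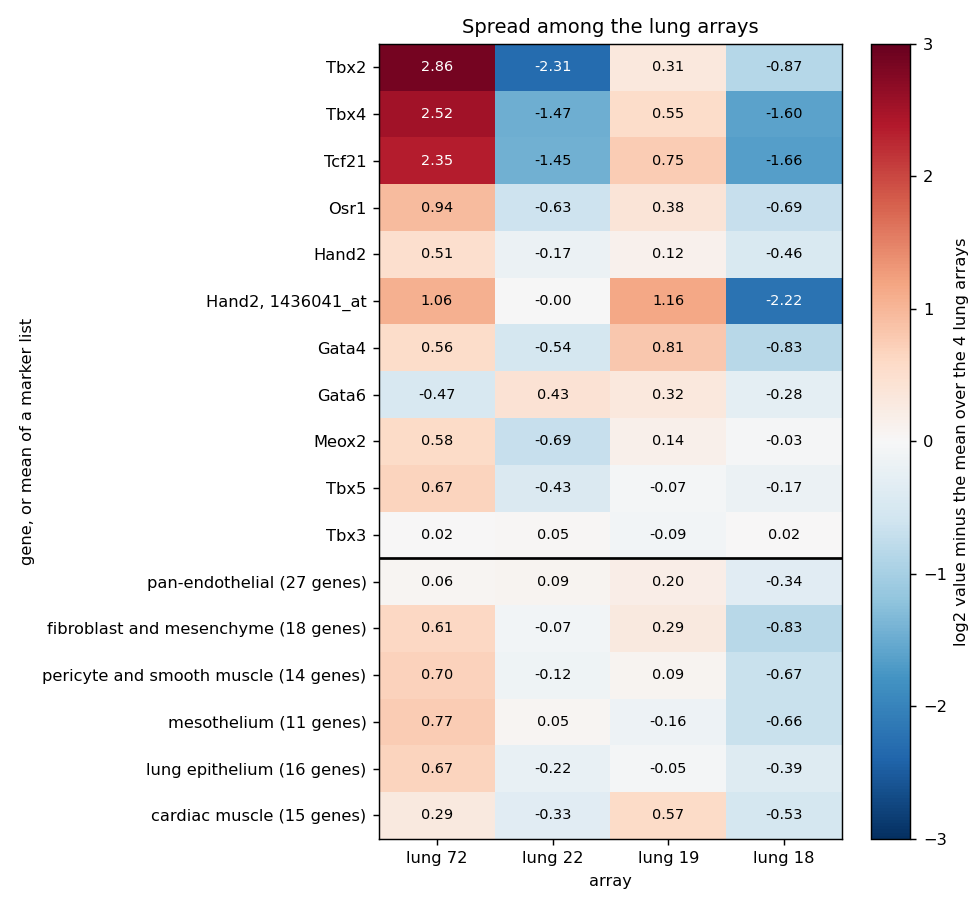
Log2 value minus the mean over the 4 lung arrays (colour and printed number) for the 10 genes, a second Hand2 probe set and the means of 6 marker lists; columns are lung arrays 72, 22, 19 and 18. Tbx2, Tbx4 and Tcf21 are darkest on lung 72, with lung ranges of 5.17, 4.13 and 4.01. The pan-endothelial mean lies between 11.27 and 11.81, though a single gene of that list, Cdh5, has a lung range of 2.39.

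Within cortex, Tbx3 alone of the 10 genes was higher on arrays 22 and 19 than on both 72 and 18, as 17.0% of all genes were. Arrays 22 and 19 were those with the higher pan-endothelial means. The other strong Tbx3 probe set gave the same split, with 8.57 and 8.05 on cortex 22 and 19 and 7.37 and 7.07 on cortex 72 and 18. At nearly equal pan-endothelial means, 11.26 on cortex 19 and 11.27 on lung 18, Tbx3 read 8.98 in cortex and 10.62 in lung, and Tbx5 5.71 in cortex and 8.59 in lung. On the same arrays Tbx4 went the other way, at 6.07 in cortex and 5.65 in lung. Tcf21 (4.45 and 4.82), Hand2 (5.64 and 6.08) and Osr1 (4.71 and 5.37) differed little. Those are single arrays and carry no test. With all arrays at the same pan-endothelial mean, the differences of the 3 genes still called were -3.55 for Meox2, -2.36 for Gata4 and -1.89 for Tbx5. The SE there was 0.58 for all 10 genes, so these calls follow the size of the difference. Tbx3 lay at -1.02 (adjusted p = 0.122) and Gata6 at -0.07, while Tbx4 turned to 0.39 and Hand2 to 0.52, all of them below the median gene at 1.15.

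**Figure D5:**
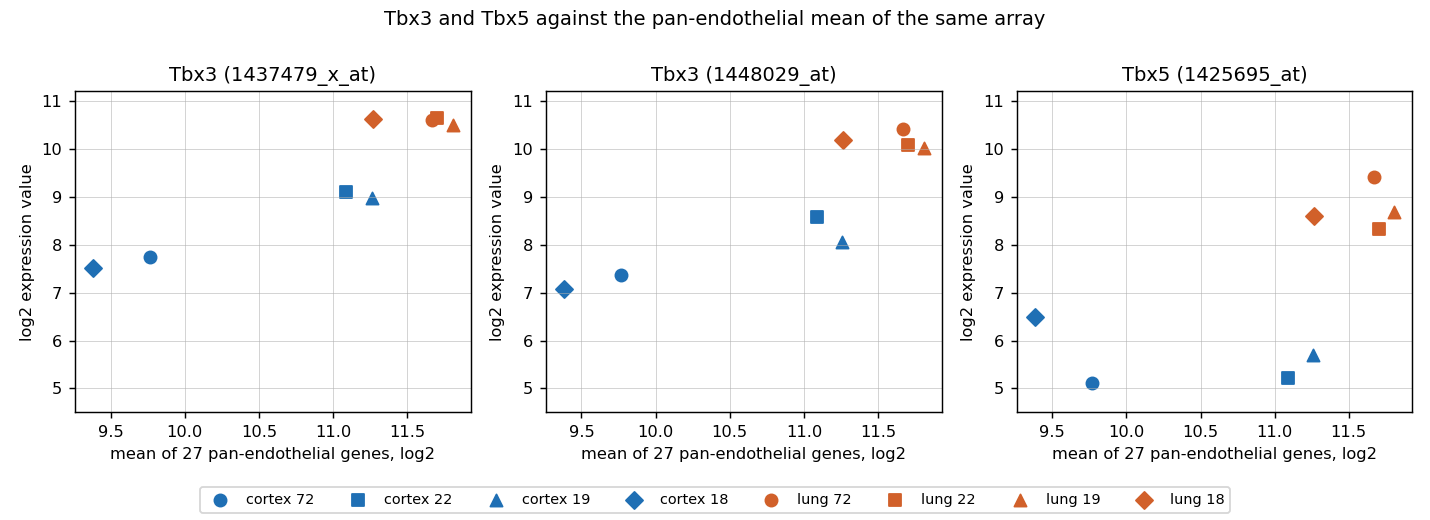
Log2 value of 2 Tbx3 probe sets and of Tbx5 (y axis) against the mean of 27 pan-endothelial genes on the same array (x axis), cortex in blue and lung in orange. Tbx3 in cortex is higher on the arrays with pan-endothelial means of 11.09 and 11.26 than on those at 9.38 and 9.77, and Tbx5 in cortex is not.

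Genes with the most similar profile were sought for 4 of the 10 genes, by the root mean square distance between log2 profiles over the 8 arrays, each centred on its own mean. Nearest to Tbx5 were Cyp4b1, a cytochrome P450 (distance 0.23), Tc2n (0.38) and Samd5 (0.38), all called lower in cortex. Nearest to Tcf21 were Nexn, an actin-binding protein (0.39), Arhgap6 (0.43) and C1qtnf7 (0.43). Nearest to Tbx2 were the trunk patterning gene Hoxb6 (0.48), Plac8 (0.52) and the aminopeptidase gene Enpep (0.56). Nearest to Tbx4 were the epithelial cadherin gene Cdh1 (0.45), Mal2 (0.49) and the sphingosine phosphate receptor gene S1pr3 (0.52). All 6 genes near Tbx2 and Tbx4 were not called, and all 6 were highest on lung 72. The profiles share the arrays and the tissue difference, so the distances are a description. The genes were picked on these same values, so their shared calls and shared top array are no separate result.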

How the data were processed

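The authors' deposited table holds log2 expression values of 45101 Affymetrix probe sets, made by RMA (background correction, quantile normalization and summary of probes) with the affy package, per the submitters' processing notes; versions are not given in the sources used here. No read counts exist for arrays, and precision is limited by 4 arrays per tissue. Every value column was assigned to a sample by title. Arrays correlated at 0.924 to 0.984 within a tissue and 0.876 to 0.940 between tissues, and no 2 were identical.

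Control probe sets (64) were dropped. Of 45037 others, 34945 named 1 gene in the platform annotation, 932 several and 9160 none. Each of 18193 genes was read from its probe set with the highest mean. The tissue difference was fitted by limma 3.58.1 (lmFit and eBayes, R 4.3.3), Benjamini-Hochberg adjustment over all genes and a threshold of 0.05, without a replicate block. Tables were made with Python 3.11.15 and pandas 2.3.3, and the fit was tested on simulated data.

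Members and gene lists were chosen with earlier results of these data known. Named genes were the 10 members, all called genes of the T-box, GATA and relatives lists, and up to 3 called genes with the largest difference of each other list. Alternatives changed the centring, scaling, probe set, dim filter, weights, block and arrays included.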

Additional observations from a re-analysis of the deposited data

Results flagged for a closer look

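In 5 of 124 groups of 4 arrays, 1 array lay far from the other 3 relative to the group's range, a gap that chance gives in about 1 in 20 groups. The cell cycle inhibitor gene Cdkn1b was lowest on lung 18 at 9.50, with the other lung arrays at 10.61 to 10.80. The fibroblast gene Postn was lowest on lung 18 at 7.09, with the others at 10.45 to 10.77. The macrophage receptor gene Csf1r was lowest on cortex 18 at 6.89, with the other cortex arrays at 10.63 to 11.31. Gata3 was lowest on lung 72 at 8.89, with the others at 9.11 to 9.13. A dim probe set of Hand2 was lowest on cortex 22 at 4.57, with the others at 4.72 to 4.74. The last gap is small in size, and none of the main probe sets of the 10 lung field genes was set apart in this way.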

How the results depend on the processing

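Of 175 values of single genes among the 10 under another setting, 154 kept direction and side of the threshold, 12 lost the call, 7 gained it and 2 reversed. Both reversals came at equal pan-endothelial means, Tbx4 to 0.39 and Hand2 to 0.52, where 3 of the 10 genes stayed called lower and the median gene lay at 1.15. That scaling shifts the difference of every gene by 1.24 log2 units, so small negative differences turn positive by construction. Its calls follow the size of the difference, since all 10 genes share an SE of 0.58. The cause of the gap in pan-endothelial means was not tested. Under the other settings 5 to 8 of the 10 were called lower and 0 higher: leaving out 1 array gave 5 to 8, array weights 8, array medians 7, the mean of a gene's probe sets 7, and the filter on dim probe sets 5, since it removed 5 of the 10 from testing. That filter drops genes with few arrays above the median of all values (6.65). Meox2, Tbx5, Gata4 and Gata6 lay above it only on their lung arrays, so their calls under this filter carry no separate support. The array weights were highest for lung 19 (3.58) and lowest for lung 18 (0.32), so the 8 calls under them rest largely on lung 19 for the lung side. Over all genes, 1403 lower and 1888 higher became 142 and 5521 at equal pan-endothelial means, and 2233 lower with array weights. With every probe set tested they were 2197 and 3278. Array medians gave 1732 lower, the mean of a gene's probe sets 1542, and the filter on dim probe sets 1278 of 11254 genes tested. Leaving out 1 array gave 956 to 1274 lower and 1393 to 1966 higher. Without cortex 72 and 18 together, chosen after seeing the data with the choice of probe set by largest range (7 of the 10 lower), there were 632 and 1057.

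With the sample number as a replicate block, 5 of the 10 were called lower, Osr1 losing its call, and 1342 of all 18193 genes. The numbers were not taken as pairs: deviations of same-numbered samples correlated at 0.33, -0.16, 0.01 and 0.31 for 72, 22, 19 and 18, and 2 of the 4 numbers matched best with their own.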
